A study of Rattus norvegicus with 6 samples.

Results

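Collagen chain genes other than those of type I were examined in the hippocampus of rats given amyloid-beta (Aβ) oligomers. Members were all genes whose RefSeq rat symbol has the form Col, a number, a and a number, without Col1a1 and Col1a2, and that had a probe on the array. This gave 16 genes and 22 probes, out of 15168 named genes and 30367 probes in the whole data set. The RefSeq table lists 42 collagen genes other than type I, and 26 of them, among them Col4a2 and Col25a1, were not matched to a probe by accession. The AD group held hippocampal tissue of male Sprague Dawley rats that had received Aβ1-42 oligomers by intracerebroventricular (ICV) injection, and the Sham group held hippocampal tissue of rats of the same strain and sex that had received the vehicle by the same route. Both groups underwent the cannula procedure, and neither carried a transgene, so the model is one of injected peptide in otherwise normal adult animals. Each group had 3 arrays, 1 for each tissue sample. Which animal each sample came from is not given, so the p-values below measure the spread between these tissue samples.

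A collagen molecule is a triple helix of 3 chains, each built of Gly-X-Y repeats in which proline and lysine are hydroxylated before the chains fold. Fibrillar chains form the fibrils of connective tissue, type IV chains form the sheet-like network of basement membranes, and FACIT chains (fibril-associated collagens with interrupted triple helices) sit on the surface of fibrils. In the brain, collagen lies mainly in the basement membrane of blood vessels, in the meninges and in the stroma of the choroid plexus, and neural tissue itself holds little.

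Levels are given as the log2 of the background-subtracted probe signal minus the 75th percentile of the same array, which puts a level of 0 at that percentile. That percentile was 795 to 932 signal units on the AD arrays. It was 753 and 755 on Sham replicates 1 and 2 and 429 on Sham replicate 3, the dimmest array. Each array had 70.7% to 79.7% of its probes well above background. One scan held the 3 AD arrays, another on the same day held Sham replicates 1 and 2, and Sham replicate 3 was scanned alone on a second day, so that scan and group cannot be told apart. All 8 hippocampal excitatory neuron markers were well above background on every array, with 0 called, and of 9 tested GABAergic interneuron markers, likewise above background throughout, 5 fell and 0 rose (median change -0.81). Precision is limited by the number of arrays. Because probes differ in how brightly they hybridise, the level of one gene is not set against that of another.

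Of the 16 genes, 13 were tested, having a probe well above background on 3 or more of the 6 arrays, and 10 had this on all 6. In AD, 0 of the 13 rose and 1, Col4a1, fell, at an adjusted p under 0.05 by limma with Benjamini-Hochberg adjustment across the 22766 probes that were tested. Over those probes 4.15% rose and 8.40% fell, 12.5% together. Over all 11940 tested genes 4.08% rose and 10.8% fell, 14.9% together, and the members' share was 7.69%. At an unadjusted p under 0.05 there were 3 members, whereas 35.4% of all tested genes passed that limit. The AD and Sham arrays did not overlap for 3 members, 2 of them higher and 1 lower in AD, while 44.1% of all tested genes had no overlap (15.7% higher and 28.3% lower). On average 8 members were higher and 5 lower in AD, and their median log2 change was 0.27, against -0.05 over all tested genes, of which 44.5% were higher. That median was 0.11 without Sham replicate 2 and 0.06 under normexp background correction. With scan as a random block 0 members were called in either direction, and 0 of the 22766 tested probes were.

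**Figure D1:**
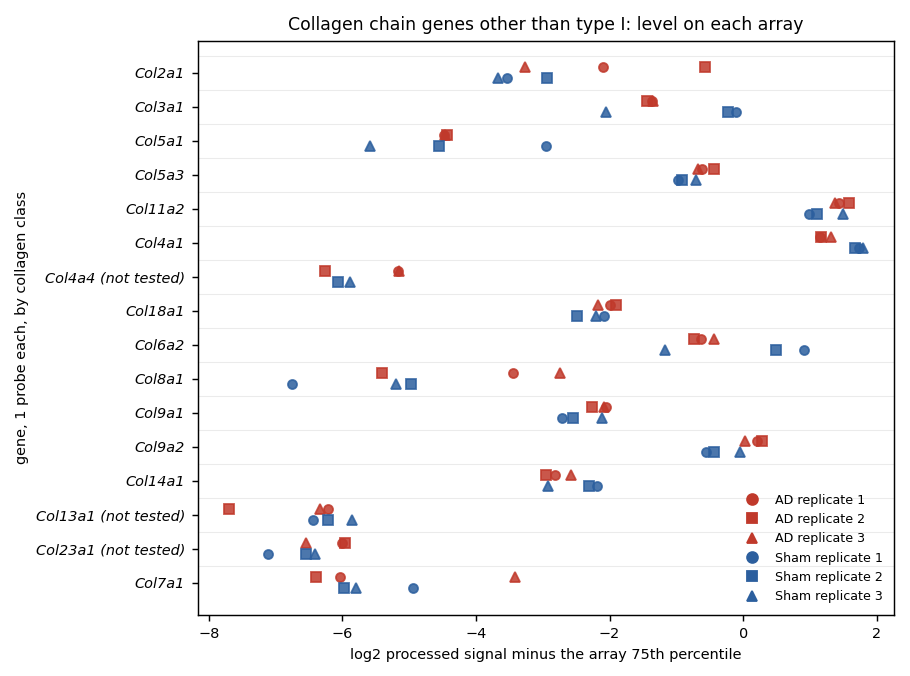
Level of each of the 16 collagen genes on each array, in log2 units relative to the array's 75th percentile (horizontal axis), with the genes listed by collagen class from fibrillar chains at the top. Red points are the 3 AD arrays and blue points the 3 Sham arrays. Col4a1 is the called gene, with AD points at 1.15 to 1.31 and Sham points at 1.68 to 1.79, while the Sham points of Col3a1, Col5a1 and Col6a2 are spread over more than those of AD.

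Col4a1 encodes the alpha-1 chain of type IV collagen, which pairs with the alpha-2 chain in the basement membrane of nearly every vessel. In AD its level was 1.15, 1.16 and 1.31 (replicates 1 to 3, the order kept below), against 1.73, 1.68 and 1.79 in Sham. All AD arrays lay below all Sham arrays, and the Sham replicate scanned on another day stood with the other Sham arrays. Col4a1 fell by 0.52 ± 0.09 on the log2 scale (SE, n = 3 per group, limma adjusted p = 0.0246), and the signal was 1.44-fold lower in AD. Set against Sham replicates 1 and 2 alone, the fall was 0.50 (limma adjusted p = 0.0263). In bulk tissue, fewer cells that express a gene and less RNA in each cell cannot be told apart. Over 10 endothelial markers, of which 9 were tested, 1 rose and 0 fell, with a median change of 0.10. The mean level of that list was -0.89 to -0.80 on AD arrays and -1.05 to -0.83 on Sham arrays, and of 9 tested pericyte and smooth muscle markers 2 rose and 0 fell, with a median of 0.19 and a mean level of -1.73 to -1.62 in AD and -2.15 to -1.68 in Sham. The part of these cells, and of the fall of interneuron markers, in the Col4a1 result was not tested. The call was lost with scan as a random block (adjusted p = 0.197) and without AD replicate 1 (0.13), AD replicate 2 (0.0668), AD replicate 3 (0.0861), Sham replicate 1 (0.063) or Sham replicate 2 (0.0743). Each of these fits left 0 of all 22766 tested probes lower in AD at that limit. The losses in these fits were therefore not particular to Col4a1. The call was also lost in fits that kept many others. Without a filter on dim probes the limma adjusted p was 0.0586, while 253 of 30297 probes were still lower in AD. With the mean of all tested probes of a gene it was 0.141, while 1497 of 20577 genes and unnamed probes were still lower. A second and much dimmer probe of Col4a1, detected above background on 2 arrays of AD and 1 of Sham, had a change of -0.33 ± 0.27 (limma adjusted p = 0.447), and of -0.08 ± 0.22 within scan day 1 (0.801).

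Col4a1 and Col4a2 are transcribed away from each other from a shared promoter, and the RefSeq starts of the pair are 76 bases apart in the rat assembly GRCr8. Those bases are shown because Col4a1 is the called gene, and next to them stand as many bases before the start of Col9a2, the member with the lowest p among those that were higher in AD. The Col4a1 stretch is chr16:84885521-84885596 and that of Col9a2 is chr5:139892722-139892797, both on the plus strand and both from RefSeq. Capitals mark a GC box (GGGCGG, or CCGCCC on the other strand), the core of the motif bound by Sp1-type factors.
Col4a1: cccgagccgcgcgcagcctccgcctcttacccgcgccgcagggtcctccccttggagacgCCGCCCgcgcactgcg
Col9a2: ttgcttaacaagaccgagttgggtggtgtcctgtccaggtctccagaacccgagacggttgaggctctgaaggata
A GC box stood in 18.1% of 33469 promoters within 76 bases of the start. Neither stretch holds a CCAAT box (CCAAT or ATTGG, 13.0% of promoters) or a TATA box (TATAAA or TTTATA, 4.61%). Of the 16 members, 12 had a promoter in the table. In the 250 bases before the start 8 of these 12 held a GC box, 2 a CCAAT box and 1 a TATA box, against 30.5%, 34.0% and 12.9% of all promoters. All promoters were taken without matching them to the members in GC content, so the 2 sets are unlike. The GC content of these 250 bases was 75.2% for Col4a1 and 52.0% for Col9a2, with the 12 members between 46.8% and 75.2% and a median of 51.2% over all promoters. These matches describe the sequence and are not sites shown to be used.

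Col4a4, an alpha chain of type IV collagen that is known from the basement membranes of kidney, lung, eye and ear, was near background. It had a level of -5.16, -6.26 and -5.15 on the AD arrays and of -6.06 and -5.89 on Sham replicates 2 and 3, while its spot on Sham replicate 1 was an outlier. It was well above background on AD replicates 1 and 3 and on no Sham array, so it was not tested. Col18a1 encodes a basement membrane collagen with heparan sulfate chains, from which the fragment endostatin is released. Its level was -2.18 to -1.90 in AD, against -2.49 to -2.09 in Sham, a log2 change of 0.23 ± 0.14 (limma adjusted p = 0.312), and the groups overlapped.

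Some chains of interstitial connective tissue separated the Sham arrays from each other rather than AD from Sham. Col3a1 encodes the chain of type III collagen, a fibril of vessel walls and soft tissues, and had levels of -1.37, -1.44 and -1.35 in AD, against -0.10, -0.23 and -2.05 in Sham. Col6a2 encodes a chain of the beaded filaments of type VI and had levels of -0.63, -0.73 and -0.44 in AD, against 0.91, 0.49 and -1.17 in Sham. Both genes were high on Sham replicates 1 and 2 and low on Sham replicate 3, with the 3 AD arrays close together between them. Col5a1 encodes a chain of type V collagen, which helps to start fibrils and set their width, and had levels of -4.48, -4.43 and -4.46 in AD, against -2.95, -4.56 and -5.59 in Sham. Here Sham replicate 1 was high, Sham replicate 2 stood near AD, and the probe was not well above background on Sham replicate 3.

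None of the 3 passed the test over all arrays. The log2 changes were -0.60 ± 0.51 for Col3a1 (limma adjusted p = 0.472), -0.68 ± 0.52 for Col6a2 (0.423) and -0.09 ± 0.62 for Col5a1 (0.937). The SD in AD was 0.0474 for Col3a1, 0.145 for Col6a2 and 0.0265 for Col5a1, whereas in Sham it was 1.09 to 1.33 for these genes. Over the tested members the median SD was 0.130 in AD and 0.392 in Sham, against 0.103 in AD and 0.158 in Sham over all tested genes. The SD was above its all-gene median for 10 of the 13 members in AD and for 11 in Sham.

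The mean of Sham replicates 1 and 2 minus Sham replicate 3 was 1.89 for Col3a1, 1.87 for Col6a2 and 1.83 for Col5a1. Over all tested genes this difference had a median of -0.11 and ran from -0.74 at the 5th percentile to 0.68 at the 95th percentile. The brightest probes of the type I chains showed the same split. Col1a1 had levels of -0.72, -0.43 and -0.60 in AD, against 1.06, 0.88 and -0.70 in Sham, and Col1a2 had 0.76, 0.89 and 0.79 in AD, against 1.63, 1.40 and 0.10 in Sham. Their Sham differences were 1.67 and 1.42. Over all arrays Col1a1 averaged -0.58 ± 0.15 in AD and 0.42 ± 0.97 in Sham (SD, n = 3 each, limma adjusted p = 0.199), and Col1a2 had a change of -0.23 ± 0.39 (SE, adjusted p = 0.723). A second probe of Col1a1 had a change of 0.45 ± 0.45 (0.536). On it Sham replicate 1 was at 0.03, while Sham replicates 2 and 3, at -1.42 and -1.56, were both below the AD arrays, at -0.40, -0.28 and -0.93, so it did not show that split.

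**Figure D2:**
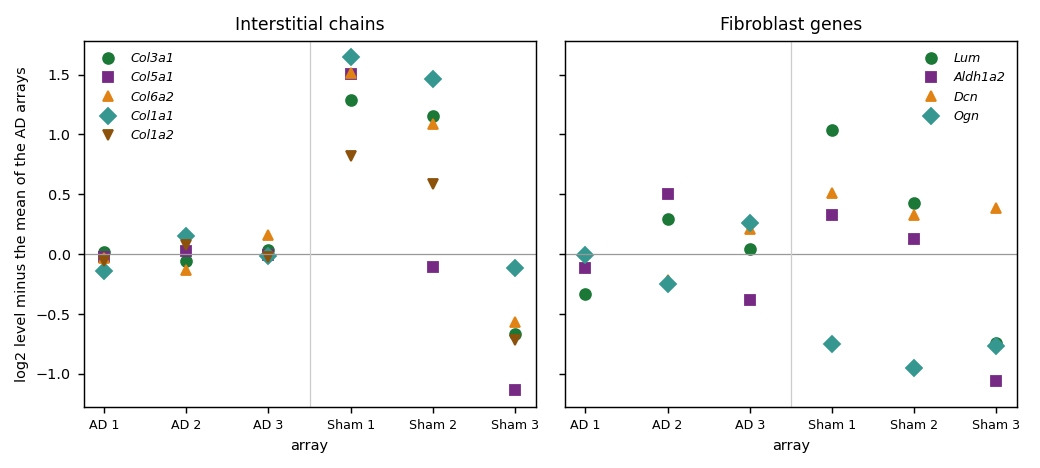
Log2 level minus the mean of the AD arrays (vertical axis) on each of the 6 arrays for 5 interstitial collagen chains, type I included (left), and 4 fibroblast genes (right). The AD points of the collagen chains lie near 0, Col3a1, Col6a2, Col1a1 and Col1a2 lie above 0 on Sham replicates 1 and 2, and all 5 chains lie below 0 on Sham replicate 3.

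Within the day on which Sham replicates 1 and 2 and all AD arrays were scanned, Col3a1 fell by 1.22 ± 0.08 on the log2 scale (limma adjusted p = 0.0151, 2.34-fold lower in AD) and Col6a2 fell by 1.30 ± 0.16 (0.019, 2.46-fold lower). Col5a1 had a change of -0.70 ± 0.47 (0.323). The brightest probes of the type I chains also fell in that comparison, Col1a1 by 1.56 ± 0.12 (0.0154) and Col1a2 by 0.70 ± 0.10 (0.0215), while the other Col1a1 probe had a change of 0.16 ± 0.47 (0.828). Within that day, 3 members rose (Col9a1, Col9a2 and Col11a2) and 3 fell (Col3a1, Col4a1 and Col6a2), while 8.66% of all tested genes rose and 13.6% fell. This comparison rests on 2 Sham arrays. It leaves out Sham replicate 3, which lay on the other side of AD for Col3a1, Col6a2 and Col1a2. That array lay within the AD range for the brightest probes of Col1a1, Col9a1 and Col11a2, and with the other Sham arrays for Col4a1.

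Fibroblasts and meningeal cells are known makers of these chains, and their markers did not all divide the Sham arrays in this way. Of 14 tested markers, 8 were higher on Sham replicates 1 and 2 than on replicate 3, with a median difference of 0.02 and a range of -0.53 to 1.48, and 3 (Lum, Aldh1a2 and Foxc2) lay above the 95th percentile of all tested genes. All 14 measured markers were well above background on every array, and the list's mean level was -1.44 to -1.28 in AD and -1.69 to -1.39 in Sham, with its lowest value on Sham replicate 3. Lum, which encodes the fibril-binding proteoglycan lumican, differed by 1.48. Aldh1a2, the retinoic acid-making enzyme of meninges, differed by 1.28 and Foxc2, a transcription factor of meningeal development, by 0.88. Mgp, which encodes matrix Gla protein, differed by 0.59, Dcn, which encodes decorin, by 0.02, and Ogn, which encodes osteoglycin, by -0.08. Over all arrays 2 of the 14 markers rose and 0 fell. The part of these cells in the collagen values was not tested.

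Of 3 tested FACIT chains 0 were called, 2 were higher and 1 was lower on average in AD, and of 5 tested fibrillar chains 0 were called, 3 were higher and 2 lower. Col9a2 encodes a chain of type IX collagen, a FACIT that coats the type II fibril. Its level was 0.20, 0.28 and 0.03 in AD, against -0.55, -0.43 and -0.04 in Sham. The AD arrays lay above the Sham arrays, narrowly so for AD replicate 3 and Sham replicate 3, and they overlapped with median scaling. The log2 change was 0.51 ± 0.16 (limma adjusted p = 0.0833), which did not pass, and within scan day 1 Col9a2 rose by 0.66 ± 0.11 (0.0239).

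Col9a1, which encodes the alpha-1 chain of type IX collagen, had 3 tested probes. The brightest had levels of -2.05, -2.26 and -2.09 in AD, against -2.71, -2.54 and -2.12 in Sham, and a log2 change of 0.33 ± 0.17 (limma adjusted p = 0.246). Sham replicate 3 lay among the AD arrays for that probe. The other probes, detected above background on 3 arrays of AD and 2 of Sham, had no overlap between the groups, with changes of 0.63 ± 0.19 (0.0772) and 0.82 ± 0.24 (0.0757). Both were near background, at 24.5 to 33.3 signal units in AD and 7.18 to 19.5 in Sham. Over all tested genes 44.1% had no overlap. The mean of the 3 probes, which includes those near background, rose by 0.59 (limma adjusted p = 0.0322). Within scan day 1 the brightest probe rose by 0.50 ± 0.11 (0.0378), and under normexp background correction over all arrays its change was 0.16 (0.493).

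Col11a2 encodes a chain of type XI collagen, which lies in the core of cartilage fibrils. Its level was 1.43, 1.59 and 1.37 in AD, against 0.99, 1.11 and 1.49 in Sham, so that Sham replicate 3 lay within the AD range. The log2 change was 0.27 ± 0.15 (limma adjusted p = 0.287), and within scan day 1 Col11a2 rose by 0.41 ± 0.10 (0.0488). A dimmer probe of the same gene had a change of 0.06 ± 0.13 (0.78). Col5a3 encodes a type V chain found in peripheral nerve and muscle, among other tissues. It had levels of -0.62, -0.43 and -0.67 in AD, against -0.97, -0.91 and -0.71 in Sham, without overlap except under median scaling, and a change of 0.29 ± 0.11 (0.142). On the brightest probes of Col9a1, Col9a2, Col11a2 and Col5a3, Sham replicates 1 and 2 averaged 0.23 to 0.51 below replicate 3, whereas on 1 of the dimmer Col9a1 probes they averaged 0.60 above it.

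**Figure D3:**
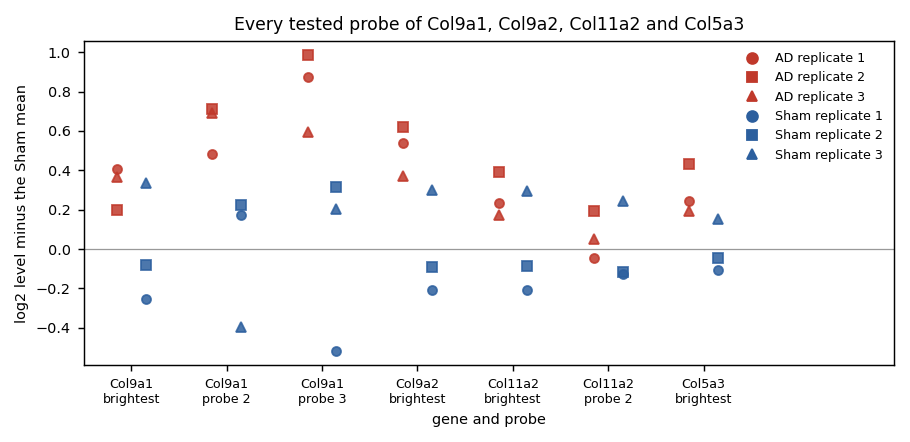
Log2 level minus the mean of the Sham arrays (vertical axis) for every tested probe of Col9a1, Col9a2, Col11a2 and Col5a3 (horizontal axis), with the 3 AD arrays in red left of the 3 Sham arrays in blue. Dimmer probes of Col9a1, near background, show changes of 0.63 and 0.82 without overlap, while the second probe of Col11a2 shows 0.06.

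Col2a1, which encodes the main fibril chain of cartilage, was uneven within AD. Its level was -2.10, -0.57 and -3.27 in AD, against -3.54, -2.93 and -3.67 in Sham. AD replicates 1 and 2 were above every Sham array, and AD replicate 3 lay within the Sham range. The log2 change of 1.40 ± 0.66 did not pass (limma adjusted p = 0.207), and the SD in AD, 1.35, was above that of 99.4% of tested genes. It was 0.69 without AD replicate 2 and 0.73 under normexp background correction. Cartilage is the known main source of this chain, and of 7 cartilage markers looked for 4 were measured. Acan and Hapln1 were tested and not called, with changes of 0.07 ± 0.20 and -0.15 ± 0.13. Cnmd, which encodes chondromodulin, had levels of -3.77, -7.28 and -2.94 in AD, against -7.62, -7.65 and -7.66 in Sham, and exceeded background on 2 arrays of AD and none of Sham. Matn1, which encodes matrilin-1, had -6.36, -6.31 and -6.30 in AD, against -7.78, -7.22 and -7.11 in Sham, with 1 AD array and no Sham array above background. Cnmd was high on AD replicates 1 and 3, whereas Col2a1 was high on replicates 1 and 2, and the part of cartilage in these values was not tested.

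Col8a1 encodes a chain of type VIII collagen, a short chain that builds hexagonal networks in vessel walls and under the corneal endothelium. Its level was -3.45, -5.40 and -2.74 in AD, against -6.76, -4.97 and -5.20 in Sham, where replicate 1 was not well above background. AD replicates 1 and 3 were above every Sham array, and AD replicate 2 lay within the Sham range. The log2 change was 1.78 ± 0.79 (limma adjusted p = 0.185), and it was 0.44 (0.337) under normexp background correction.

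The choroid plexus markers varied in a like manner among the AD arrays. Relative to the Sham mean, Col8a1 stood at 2.19, 0.24 and 2.90 on AD replicates 1 to 3, and the median of the 13 tested choroid plexus markers stood at 2.44, 0.33 and 3.29. All 13 had a higher mean in AD, 0 were called, and of 15 measured markers 15, 13 and 15 exceeded background in AD and 11, 13 and 13 in Sham. The list's mean level was -2.06 to 1.08 in AD and -2.88 to -1.95 in Sham. Skeletal muscle markers stood at 1.05, 0.67 and 2.50 on the AD arrays, where 2 of 12 rose. The part of either tissue in the Col8a1 values was not tested.

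The remaining chains gave little signal or no call. Col14a1, a FACIT of dense connective tissue, had levels of -2.82, -2.95 and -2.57 in AD, against -2.19, -2.31 and -2.92 in Sham. Its change of -0.30 ± 0.22 did not pass (limma adjusted p = 0.385), and Sham replicate 3 again lay with AD. Col7a1, the chain of the anchoring fibrils of skin, had levels of -6.03, -6.39 and -3.41 in AD, against -4.94, -5.98 and -5.80 in Sham. It was high on AD replicate 3 alone, was detected above background on 2 arrays of AD and 1 of Sham, and had a change of 0.29 ± 0.80 (0.833). The transmembrane chains Col13a1 and Col23a1 were each detected above background on 1 array of AD and 0 of Sham and were not tested.

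**Figure D4:**
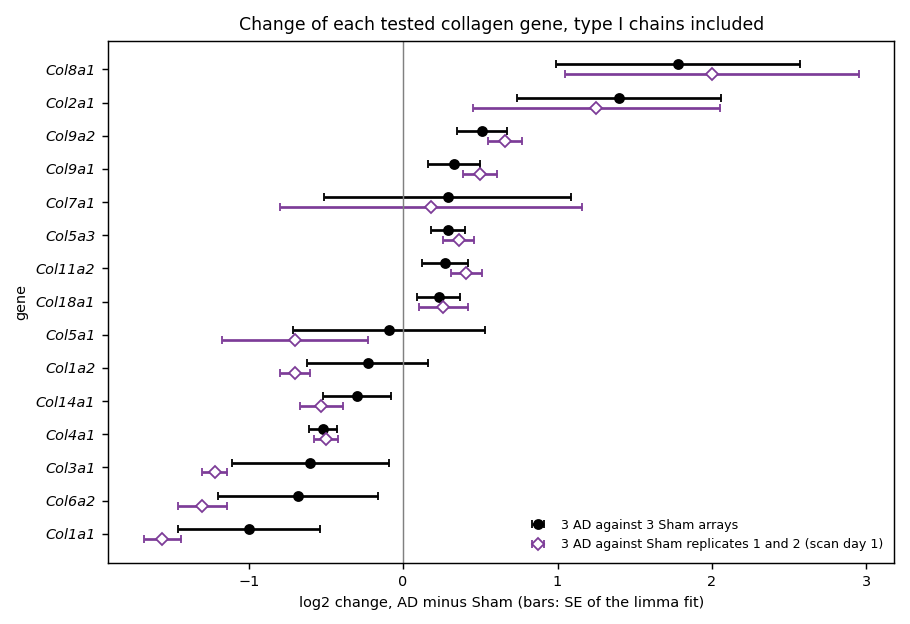
Log2 change of AD minus Sham (horizontal axis, bars show the SE of the limma fit) for the 13 tested members and both type I chains. Black circles compare 3 AD with 3 Sham arrays, and open diamonds compare 3 AD arrays with Sham replicates 1 and 2, scanned on the same day. The 2 fits nearly coincide for Col4a1, at -0.52 and -0.50, and differ for Col3a1, at -0.60 and -1.22, and for Col6a2, at -0.68 and -1.30.

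The genes that make, bind and remodel collagen were described through 6 lists. Of 58 tested genes 4 rose and 5 fell, which is 15.5% against 14.9% of all tested genes. Each of these 9 calls was lost with scan as a random block, and 0 of the 58 genes were called without any 1 AD array or without Sham replicate 1 or 2. Those fits left 0 to 2 calls among all 22766 tested probes, so the losses were not particular to these genes.

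Among 16 tested enzymes of collagen folding and modification, 1 rose and 1 fell, with a median change of 0.09. Plod1, a lysyl hydroxylase that prepares chains for cross-links, had levels of -0.13, -0.15 and -0.05 in AD, against -0.40, -0.62 and -0.57 in Sham, and rose by 0.42 ± 0.09 (limma adjusted p = 0.0405). Sec13, a subunit of the COPII coat that carries procollagen out of the endoplasmic reticulum, fell by 0.36 ± 0.08 (0.0455). Both had AD and Sham arrays apart. Under normexp correction the changes were 0.32 for Plod1 (0.103) and -0.40 for Sec13 (0.0565), which no longer passed. Among 7 tested processing and cross-linking enzymes, 1 fell, and this was Tll2, a tolloid-like protease, by 0.67 ± 0.16 (0.0468), from a dim probe. Its change was -0.47 (0.144) under normexp correction and -0.58 (0.066) within scan day 1.

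Of 7 tested collagen receptors 1 rose and 1 fell. Itgb1 encodes the integrin beta-1 subunit shared by the collagen-binding integrins. It had levels of -0.26, -0.14 and -0.25 in AD, against -0.85, -0.89 and -0.68 in Sham, and rose by 0.59 ± 0.09 (limma adjusted p = 0.0228), while its other probe had a change of 0.42 ± 0.21 (0.232). Ddr2 encodes a receptor tyrosine kinase that is activated by fibrillar collagen. It had levels of -1.30, -1.45 and -1.25 in AD, against -0.59, -0.56 and -0.45 in Sham, and fell by 0.80 ± 0.09 (0.0183). A dimmer Ddr2 probe pointed the other way, with 0.25 ± 0.10 (0.166).

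Among 10 tested collagen-degrading proteases and inhibitors 1 fell. This was Ctsk, the lysosomal protease cathepsin K, with levels of 1.32, 1.50 and 1.35 in AD, against 1.92, 2.41 and 2.18 in Sham and a fall of 0.78 ± 0.14 (limma adjusted p = 0.0286). Among 8 tested basement membrane partners of type IV collagen 1 fell and 7 were higher on average, with a median change of 0.30. The gene that fell was Agrn, the heparan sulfate proteoglycan agrin, with levels of 3.56, 3.77 and 3.55 in AD, against 4.15, 4.02 and 4.23 in Sham and a fall of 0.51 ± 0.11 (0.0354). Its dimmer probe had a change of 0.05 ± 0.14 (0.832).

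Of 10 tested small leucine-rich proteoglycans and fibril partners 2 rose and 0 fell. Ogn had levels of 0.65, 0.41 and 0.92 in AD, against -0.09, -0.29 and -0.11 in Sham, and rose by 0.82 ± 0.15 (limma adjusted p = 0.0276). Omd, which encodes osteomodulin, a proteoglycan of mineralised tissue, rose by 0.62 ± 0.11 (0.0273), with 0.43 (0.0514) under normexp correction. Both are also in marker lists used here, Ogn among the fibroblast and Omd among the bone markers, of which 4 of 7 tested rose. The part of these cells in the rises was not tested.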

How the data were processed

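Hippocampal mRNA was measured on single-colour Agilent rat arrays, 3 for AD and 3 for Sham, grouped by sample title. The deposited scanner files hold linear processed intensity per spot, background-subtracted by Agilent Feature Extraction 11.0.1.1 per the labels. The authors also deposited a table of log2 values (each column median 6.57, genes not centred, scaling not stated), whose columns for AD replicates 2 and 3 matched each other's scanner arrays (r = 0.9942 and 0.9989). Replicate numbers follow the scanner files. Control and outlier-flagged spots were left out, spots of a probe averaged, and log2 intensity was scaled to the 75th percentile of each array. Probes well above background on at least 3 arrays were tested with limma 3.58.1 (R 4.3.3, statmod 1.5.0; lmFit and eBayes, two-sided, threshold 0.05), after a check on simulated data. Each gene was represented by its brightest probe. RefSeq (GRCr8) symbols were matched by accession for 59.3% of probes, and the array was annotated on another build.

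Members and gene lists were chosen with earlier results of these data known. Genes were named by a rule: called members, the 8 brightest, the 6 largest uncalled changes, Col3a1, Col4a1, Col4a2, Col18a1 and Col25a1, members detected in 1 group only, the type I chains and up to 4 called genes per pathway list. Remaining members were described as well, and the fibroblast genes shown against the Sham split were picked after their values were seen. Alternatives covered background correction, scaling, filters, scan, slide position, array weights, single arrays left out, probe choice and the methods' t-test. Normexp used the median signals, as the files hold no mean signal.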

Additional observations from a re-analysis of the deposited data

Results flagged for a closer look

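Values of 2 genes outside the tests were picked out because their probe was well above background on at least 1 AD array and on no Sham array and its highest AD level exceeded every Sham level. Col4a4 reached -5.15 on AD replicate 3, and Col23a1 reached -5.96 on AD replicate 2, although only AD replicate 1 (-6.00) was well above background for it. The highest Sham levels were -5.89 for Col4a4 and -6.41 for Col23a1. Neither difference was tested.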

How the results depend on the processing

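No change of a collagen gene that the naming rule took was reversed under any alternative run. Outside that rule, the change of Col5a1 went from -0.09 to 0.08 with scan as a random block. That of Col7a1 went from 0.29 to -0.11 under normexp correction. Both signs also turned when 1 array was left out. Without Sham replicate 1, the remaining Sham levels of Col5a1 (-4.56 and -5.59) lay below every AD level (-4.48 to -4.43). Without AD replicate 3, the remaining AD levels of Col7a1 (-6.03 and -6.39) lay below every Sham level (-5.98 to -4.94). The number of members that rose (0) was 3 within scan day 1, 6 with array weights, 1 with the mean of all probes of a gene (Col9a1) and 0 to 3 leaving out 1 array. The number that fell (1) was 0 without a filter on dim probes, with scan as a random block, with slide position as a block, with the mean of probes and by the methods' t-test at a fold change of 2 and its unadjusted p. Array weights gave 4, scan day 1 alone 3, and 0 to 3 were found leaving out 1 array. The methods' t-test after Benjamini-Hochberg adjustment gave 0 and 1. For Col4a1 the change was -0.57 to -0.42 and the adjusted p 0.00216 to 0.197 over 20 alternatives, 10 of which ended the call. The members' median change (0.27) was 0.06 under normexp correction, 0.35 with the 75th percentile over detected probes and 0.11 to 0.30 leaving out 1 array. The pathway count (9) was 5 under normexp correction, 1 without a filter, 0 with scan as a random block or slide position as a block, 35 with array weights, 5 by the methods' t-test and 0 to 12 leaving out 1 array. The members without overlap (3) were 1 with median scaling, namely Col4a1, and 4 in the deposited value table, where Col11a2 joined. The comparison within scan day 1 is the one without Sham replicate 3, and the causes of these shifts were not tested.

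Over all tested probes limma called 2857 (33.1% higher in AD), 1624 (17.4%) under normexp correction, 2668 (53.2%) with the 75th percentile over detected probes, 2835 (24.2%) with median scaling, 352 without a filter, 4470 within scan day 1, 9870 with array weights, 0 with scan or slide position as a block and 0 to 2 without any AD array or without Sham replicate 1 or 2. Normexp correction moved the median change of all probes to -0.14, from which its changes should be read. Same-numbered AD and Sham arrays deviated together only weakly (r of 0.03, 0.07 and 0.14), so the numbers were not taken as pairs, and with the replicate number as a block 0 members rose, 0 fell and 0 pathway genes were called. With that block 0 of all tested probes were called. Alternatives for normexp correction, the pathway count and the overlap were partly chosen after seeing the data. Genes with probes near background (Col5a1, Col7a1, Col8a1, Col4a4) are measured least reliably, as are the dimmer probes of Col9a1.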

Other observations

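Some uncalled genes of the collagen pathway, picked after their values were seen, had 1 or 2 arrays apart from the rest of their group. Fmod, which encodes the fibril-binding proteoglycan fibromodulin, had levels of 1.54, 0.03 and 2.33 in AD, against 0.28, -0.37 and -0.33 in Sham, with AD replicates 1 and 3 above every Sham array (log2 change 1.44 ± 0.58, limma adjusted p = 0.15). Timp1, an inhibitor of matrix metalloproteinases, had levels of -2.02, -2.02 and -2.01 in AD, against -0.02, -1.66 and -1.94 in Sham, so that Sham replicate 1 alone stood apart (-0.81 ± 0.49, 0.311). Serpinh1, the collagen chaperone Hsp47, had levels of 1.03, 0.97 and 1.28 in AD, against 1.72, 0.44 and 0.44 in Sham, and again Sham replicate 1 was the high array (0.23 ± 0.36, 0.703). Mmp13, a collagenase picked in the same way for its wide separation, had levels of -5.73, -4.89 and -5.77 in AD, against -6.23, -7.15 and -6.58 in Sham, with a change of 1.19 ± 0.33 that did not pass (0.0635). Its probe exceeded background on 3 arrays of AD and 0 of Sham, so it was tested only through the group in which it was high, and its Sham values are at background.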
